A study of Homo sapiens with 18 samples.

Results

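The 10 genes described here are the metallothionein genes MT1A, MT1E, MT1F, MT1G, MT1H, MT1M, MT1X and MT2A, the gene of the zinc-sensing transcription factor MTF1, and SLC30A1, which encodes the zinc exporter ZnT1. They were chosen by name, as 10 of the 23106 gene symbols counted in each file. PolyA+ RNA had been sequenced from 3 established human cell lines in normoxia and in hypoxia, with 3 replicates in each of 6 groups and 18 samples in all. HKC-8 is a renal tubule line, RCC4 a renal carcinoma line and HepG2 a liver carcinoma line, and each is a single line grown in the same serum-containing medium. The RCC4 samples are labelled RCC4+VHL in both conditions, so their normoxic controls carry VHL as well, the tumour suppressor that native RCC4 cells lack. The titles of all RCC4 samples also carry the word Replacement, which no label explains. Normoxic HKC-8 samples are titled 21% oxygen, and the other normoxic labels give no percentage. Hypoxic HKC-8 and HepG2 samples are labelled 0.5% oxygen for 16 h, although the HKC-8 titles read 0.1%. Hypoxic RCC4+VHL samples are labelled 1% for 24 h, whereas a legend of the paper gives a common exposure of 0.5% for 16 h. Responses of RCC4+VHL cells are therefore set beside those of the other lines and not tested against them. No source used here says whether replicates were separate cultures, so p-values measure only the spread between these samples, which may be technical.

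Metallothioneins are small cysteine-rich proteins that bind zinc and copper, buffer free zinc and sequester toxic metals such as cadmium. When cytosolic zinc rises, MTF1 binds it through its zinc fingers, enters the nucleus and activates genes that carry metal response elements in their promoters. Metallothionein genes and SLC30A1 are its best known targets, so that excess zinc is both bound and exported. Liver and kidney are the organs best known for metallothionein, and metallothionein genes also respond to glucocorticoids and oxidative stress.

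The 8 metallothionein members lie in 1 cluster on the long arm of chromosome 16, between positions 56642496 and 56718108 of GRCh37, the build of the files. MT2A opens the cluster at chr16:56642496-56643409 and MT1X closes it at chr16:56716382-56718108. MT1G alone is on the reverse strand. MTF1 (chr1:38275246-38325264) and SLC30A1 (chr1:211744910-211752503) are both on the reverse strand of chromosome 1. All 10 are annotated as protein coding. The copies resemble each other, and fragments that did not map uniquely had been removed before counting. Of the 50-base windows along the main transcript of each gene, 78.1% (MT1G) to 93.1% (MT1A) of those of a metallothionein gene occurred nowhere else in the genome, against 98.2% for MTF1 and 100% for SLC30A1 after rounding. For MT1E and MT1X the share was 79.6% and 79.2%, and for MT2A it was 87.8%. The counts of the metallothionein genes are therefore uncertain in level, and least so for MT1A and MT1F. MT1X overlaps a long non-coding RNA on its own strand and MTF1 overlaps another coding gene, whose reads could not be told apart from theirs.

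Promoters are shown because they carry the sequence through which MTF1 is known to act. RefSeq's table (GRCh38.p14) held a start site for 5 of the 10 members, namely MT1H, MT1X, MT2A, MTF1 and SLC30A1. The 250 bases before the start were searched on both strands for the metal response element core, spelled TGCACNC or TGCGCNC, and for the core of the hypoxia response element, spelled ACGTG or GCGTG. Capitals mark the metal response element cores, read 5′ to 3′ on the strand of the gene.
MT2A (chr16:56608334-56608583, forward strand): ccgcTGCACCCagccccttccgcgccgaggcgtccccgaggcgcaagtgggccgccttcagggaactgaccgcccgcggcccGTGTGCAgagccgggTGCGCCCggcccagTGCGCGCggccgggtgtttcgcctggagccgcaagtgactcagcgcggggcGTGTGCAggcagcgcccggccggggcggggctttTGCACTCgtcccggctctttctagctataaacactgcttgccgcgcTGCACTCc
MT1X (chr16:56682220-56682469, forward strand): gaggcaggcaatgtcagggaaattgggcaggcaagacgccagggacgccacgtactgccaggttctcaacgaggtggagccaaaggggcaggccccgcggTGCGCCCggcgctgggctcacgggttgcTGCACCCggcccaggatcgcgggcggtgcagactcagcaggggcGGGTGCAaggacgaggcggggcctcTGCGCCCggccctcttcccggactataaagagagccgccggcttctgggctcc
MT1H (chr16:56669564-56669813, forward strand): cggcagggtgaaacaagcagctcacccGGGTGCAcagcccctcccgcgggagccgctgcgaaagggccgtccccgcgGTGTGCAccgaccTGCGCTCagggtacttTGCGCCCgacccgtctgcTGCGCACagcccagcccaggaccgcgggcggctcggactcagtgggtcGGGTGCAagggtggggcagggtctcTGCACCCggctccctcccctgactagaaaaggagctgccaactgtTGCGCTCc
SLC30A1 (chr1:211579162-211579411, reverse strand): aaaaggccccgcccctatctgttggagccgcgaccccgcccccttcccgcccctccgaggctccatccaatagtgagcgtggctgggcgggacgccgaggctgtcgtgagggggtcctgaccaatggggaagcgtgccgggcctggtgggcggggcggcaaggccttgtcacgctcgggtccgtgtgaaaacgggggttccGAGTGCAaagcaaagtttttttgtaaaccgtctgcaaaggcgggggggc

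The windows of MT2A and MT1X, the members that responded most in HepG2 cells, held 7 and 4 metal response element cores. MT1H, which was barely counted in any line, held 8. SLC30A1 held 1, from -49 to -43 relative to the start, and MTF1 none. Of 35116 promoter windows of the same length, 24.8% held at least 1 such core and 0.370% held at least 4. The metallothionein windows also shared positions, with a core from -78 to -72 and another from -53 to -47 in both MT1X and MT1H, and with cores from -54 to -48 and from -8 to -2 in MT2A. Cores of the hypoxia response element numbered 1 in MT2A, 1 in MT1X, 0 in MT1H, 3 in SLC30A1 and 2 in MTF1, and 43.2% of all windows held at least 1. The match in MT2A, from -90 to -86, overlapped a metal response element core from -88 to -82. These are matches of letters and not sites shown to be bound.

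**Figure D1:**
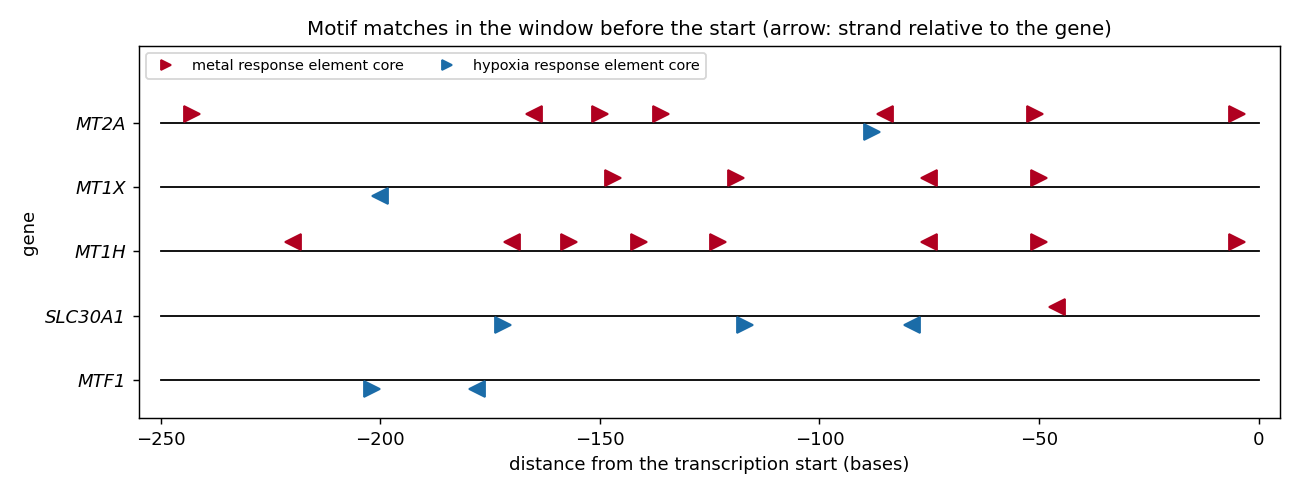
Positions of motif matches in the 250 bases before the start of 5 genes, with the distance from the start in bases on the x axis, 1 gene per row, and arrows pointing along the strand of the match. Red arrows are metal response element cores, 7 in MT2A, 4 in MT1X, 8 in MT1H and 1 in SLC30A1, and blue arrows are hypoxia response element cores.

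Total counts per sample ran from 40915980 to 97984260, and 3 counts, set as the floor of detection, equalled 0.0306 to 0.0733 CPM, the count scaled to a common library total. HKC-8 libraries were the deepest, so depth, line and any library batch cannot be told apart between lines. Counting may also differ between lines. Of 97 coding genes of the major histocompatibility region on chromosome 6 with at least 10 counts in every HepG2 sample, 14 had 0 counts in all 12 samples of the other lines, CLIC1 and NELFE, which most cells use and which are named after their values were seen, among them, against 110 of 10864 genes elsewhere on the autosomes. In the metallothionein cluster the number was 0 of 6, a count that requires 0 in both other lines. MT1A had 0 counts in all RCC4+VHL samples and MT1G in all HKC-8 samples. The part of any difference in counting in the levels compared between lines was not tested. Hypoxia-induced genes checked the labels, since NDRG1 rose in HKC-8 (log2 fold change 4.72), RCC4+VHL (3.74) and HepG2 cells (3.56). Mean VEGFA rose from 37.3 to 122 CPM in HKC-8, from 29.1 to 52.8 in RCC4+VHL and from 71.2 to 186 in HepG2 cells. Mean CA9 rose from 5.34 to 161 CPM in HKC-8 and from 0.539 to 188 in HepG2 cells. In RCC4+VHL samples CA9 had 0 counts in normoxia and only 3 to 6 in hypoxia. VHL was counted at 62.0 to 67.3 CPM in RCC4+VHL samples, below its 81.6 to 112 CPM in HKC-8 and 71.0 to 88.1 CPM in HepG2 samples. Counts per gene do not tell introduced from native VHL mRNA, so they do not check the RCC4+VHL label. All 8 liver markers were present in HepG2 samples, and all 6 kidney lineage markers in RCC4+VHL samples. Of proximal tubule markers, LRP2 had at most 3 counts in every HKC-8 sample. The 6 genes summed to 2.09 to 4.63 CPM there, against 289 to 300 CPM in normoxic HepG2 samples, so they did not mark HKC-8 cells. Of 6 kidney lineage markers, 3 had a median of at least 10 counts in HKC-8 cells, but so did 3 in normoxic and 4 in hypoxic HepG2 cells. The lineage markers summed to 156 to 200 CPM in normoxic HKC-8 and 17.1 to 21.5 CPM in normoxic HepG2 samples. Levels below are CPM after TMM scaling of all 18 samples together.

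In normoxia MT2A was the most abundant metallothionein mRNA in every line, and its level did not separate the lines. What differed between the lines was the company it kept. MT1E and MT1F were higher in both kidney lines than in HepG2 cells, while MT1A and MT1G were highest in HepG2 cells. Genes were compared per kilobase of their main transcript. MT2A reached 374 ± 126 CPM per kilobase in HKC-8, 395 ± 33.5 in RCC4+VHL and 391 ± 107 in HepG2 cells (SD, n = 3). MT1E came next, at 115 ± 19.1, 149 ± 3.94 and 27.1 ± 3.79 CPM per kilobase in the same order. In bulk RNA, fewer cells with a transcript and less of it per cell cannot be told apart.

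The rest of the order depended on the line. In HKC-8 cells it ran MT1X (27.8 ± 2.61 CPM per kilobase), MT1F (12.8 ± 2.48), MTF1 (6.34 ± 0.493), SLC30A1 (4.90 ± 0.864) and MT1A (0.816 ± 0.484). In RCC4+VHL cells it ran MT1X (19.8 ± 2.03 CPM per kilobase), MT1F (19.1 ± 1.80), SLC30A1 (6.67 ± 0.165) and MTF1 (3.96 ± 0.141), and the ranges of MT1X and MT1F overlapped. In HepG2 cells MT1X stood at 24.9 ± 5.14 CPM per kilobase, within the range of MT1E, and was followed by SLC30A1 at 7.41 ± 0.913. Below them in HepG2 cells, MT1G (2.68 ± 0.923), MTF1 (2.51 ± 0.144) and MT1F (2.36 ± 0.672) had overlapping ranges, and so did MT1A (2.685 ± 0.586).

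**Figure D2:**
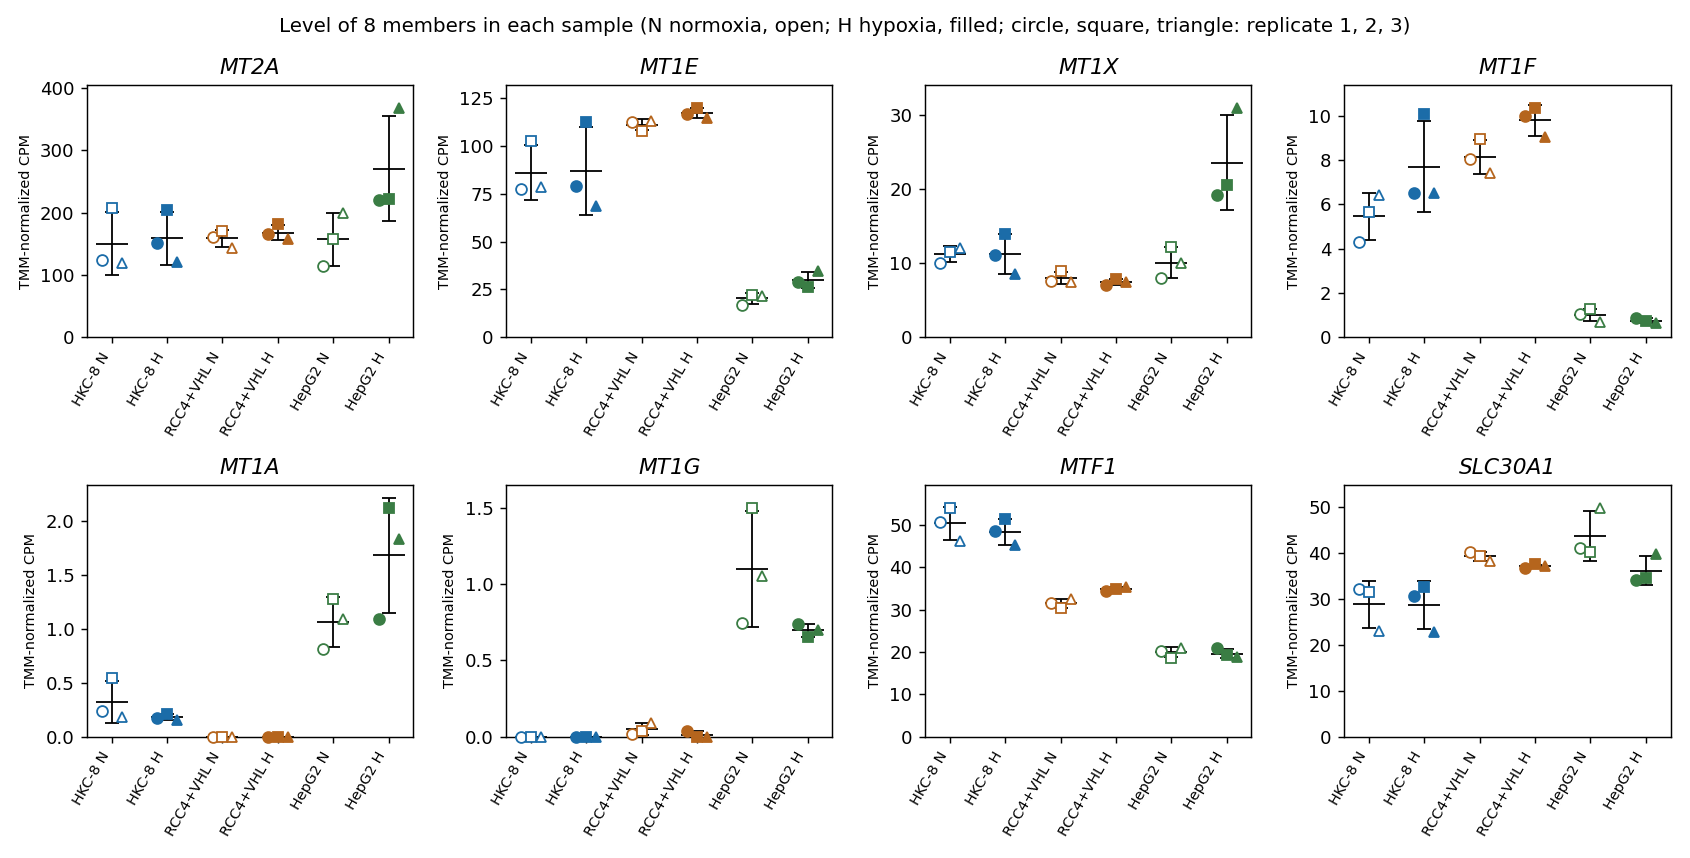
TMM-normalized CPM (y axis, linear from 0) of 8 members in each of 18 samples, grouped on the x axis by line and oxygen, with bars for the mean and SD of 3 replicates. Hypoxic HepG2 samples lie above all normoxic ones for MT2A, MT1E and MT1X, and MT1F and MT1E are lowest in HepG2 cells.

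Between-line tests in normoxia used edgeR's quasi-likelihood test on the 9 normoxic samples, with Benjamini-Hochberg adjustment over all genes. Between HepG2 and HKC-8 cells 6 of 8 tested members differed, 3 in each direction, where 42.6% of all 14806 genes were higher and 40.5% lower in HepG2 cells (83% together). Between RCC4+VHL and HKC-8 cells 7 of 8 differed (4 higher and 3 lower in RCC4+VHL), against 39.4% of all genes higher and 41.4% lower (80.8% together), and between RCC4+VHL and HepG2 cells 5 of 8 (3 higher and 2 lower), against 38.1% higher and 45.3% lower (83.3% together). The lines differed in most genes, so these shares are near the background. MT1A had 0 counts in RCC4+VHL samples, and MT1G had 0 in HKC-8 and 1 to 4 in normoxic RCC4+VHL samples. Both entered these contrasts through the lines where they were counted, and their calls against those cells are part of the tallies. In the last of these contrasts the median of all genes was -0.11 on the log2 scale.

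MT1E was 4.20-fold higher in HKC-8 than in HepG2 cells (adjusted p = 1.23e-09, edgeR) and 5.46-fold higher in RCC4+VHL than in HepG2 cells (adjusted p = 2.14e-10, edgeR). Its 3 normoxic values were 77.4, 103 and 78.3 CPM in HKC-8, 113, 108 and 113 in RCC4+VHL, and 17.0, 22.2 and 21.5 in HepG2 cells, with no overlap between lines. MT1F followed the same order, at 5.45 ± 1.05 CPM in HKC-8, 8.13 ± 0.766 in RCC4+VHL and 1.00 ± 0.286 in HepG2 cells (SD, n = 3). The kidney lines themselves differed less, by a log2 ratio of 0.38 ± 0.11 (SE) for MT1E and 0.59 ± 0.19 for MT1F, both higher in RCC4+VHL cells (adjusted p = 0.00686 and 0.00994, edgeR).

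MT2A gave log2 ratios of 0.09 ± 0.21 (SE) for HepG2 over HKC-8 (adjusted p = 0.710, edgeR), 0.09 ± 0.21 for RCC4+VHL over HKC-8 (adjusted p = 0.704) and 0.01 ± 0.21 for RCC4+VHL over HepG2 (adjusted p = 0.983). Replicates of MT2A were wide in HKC-8 cells, where replicate 2 stood at 208 CPM beside 123 and 119 for replicates 1 and 3, and in HepG2 cells. Without HKC-8 replicate 2, RCC4+VHL cells were called higher than HKC-8 cells (0.39, adjusted p = 0.0422). MT1X was lower in RCC4+VHL than in HKC-8 cells (log2 ratio -0.47 ± 0.15, adjusted p = 0.0113, edgeR). For RCC4+VHL over HepG2 the ratio of MT1X was -0.34 ± 0.16 (adjusted p = 0.0593), and it was called without RCC4+VHL replicate 2 (-0.42, adjusted p = 0.0444) or without HepG2 replicate 1 (-0.43, adjusted p = 0.0195). For HepG2 over HKC-8 it was -0.14 ± 0.15 (adjusted p = 0.416), and called without HepG2 replicate 2 (-0.36, adjusted p = 0.0485).

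MT1A and MT1G were scarce. MT1A was at 0 in RCC4+VHL cells, and MT1G was at or near 0 in both kidney lines. MT1A had 36, 57 and 46 counts in normoxic HepG2 samples and 20, 44 and 17 in HKC-8 samples, but 0 in all 6 RCC4+VHL samples, where the floor was 0.0579 to 0.0714 CPM. Against that floor of 3 counts per library, MT1A was at least 15.1-fold higher in HepG2 and at least 4.58-fold higher in HKC-8 than in RCC4+VHL cells. MT1G had 33, 67 and 44 counts in normoxic HepG2 samples and 0 in all 6 HKC-8 samples, so that it was at least 30.3-fold higher in HepG2 cells. RCC4+VHL samples held 1, 2 and 4 counts of MT1G, and the call of MT1G between RCC4+VHL and HKC-8 cells rests on those. MT1H had at most 12 counts and MT1M at most 15, in HKC-8 samples, and neither passed the filter on low counts in any fit. MT1L, a further copy annotated outside the members, was an HKC-8 transcript here, with 302, 365 and 355 counts in normoxic HKC-8 samples and 3 counts in all over the 6 normoxic samples of the other lines.

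MTF1 itself followed another order, with 50.6, 54.1 and 46.2 CPM in normoxic HKC-8, 31.5, 30.3 and 32.6 in RCC4+VHL and 20.2, 18.7 and 20.96 in HepG2 samples. No lines overlapped, and MTF1 was 2.49-fold lower in HepG2 than in HKC-8 cells (adjusted p = 2.70e-09, edgeR). SLC30A1 ran the other way, with 32.1, 31.6 and 23.0 CPM in HKC-8, 40.2, 39.4 and 38.3 in RCC4+VHL and 41.0, 40.1 and 49.9 in HepG2 samples. It was 1.53-fold higher in HepG2 (adjusted p = 0.000281, edgeR) and 1.37-fold higher in RCC4+VHL (adjusted p = 0.00291) than in HKC-8 cells, while RCC4+VHL and HepG2 cells were not told apart (log2 ratio -0.16 ± 0.12, adjusted p = 0.230).

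Hypoxia raised the main metallothionein mRNAs in HepG2 cells. MT1X, MT2A and MT1E rose by 2.34-fold, 1.72-fold and 1.48-fold, whereas SLC30A1 fell slightly and MTF1 gave no call. Of 8 members tested, 3 were higher and 1 was lower, against 19.9% of 13623 genes higher and 19.2% lower, or 39.1% in either direction. The median log2 fold change of the 8 was 0.27, beside 0.00 (-0.0044 before rounding) over all genes tested.

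MT1X, a widely expressed isoform, stood at 8.0, 12.2 and 10.0 CPM in normoxic and at 19.3, 20.5 and 31.0 CPM in hypoxic HepG2 samples. Every hypoxic sample lay above every normoxic one, and the log2 fold change was 1.22 ± 0.18 (SE, adjusted p = 0.000132, edgeR). It kept its call under all 12 alternatives tried for this contrast, with log2 fold changes from 0.98 to 1.40. MT2A, the isoform that supplied most metallothionein counts, stood at 114, 157 and 199.7 CPM in normoxic and 221, 223 and 368 CPM in hypoxic samples. The groups did not overlap but were wide, and the highest normoxic and highest hypoxic values both belonged to replicate 3. Its log2 fold change was 0.78 ± 0.20 (adjusted p = 0.00655, edgeR), and DESeq2 gave 0.79 with an adjusted p of 0.0560, which ends the call. MT1E stood at 17.0, 22.2 and 21.5 CPM in normoxic and 28.8, 26.4 and 34.6 CPM in hypoxic samples, again without overlap (0.56 ± 0.12, adjusted p = 0.00191, edgeR).

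The scarcer copies gave no call. MT1A had 36, 57 and 46 counts in normoxic and 46, 98 and 71 in hypoxic HepG2 samples, with overlapping levels and a log2 fold change of 0.67 ± 0.28 (SE, adjusted p = 0.0755, edgeR). It was called without hypoxic replicate 1 (0.90, adjusted p = 0.0222). MT1G went from 33, 67 and 44 to 31, 30 and 27 counts, with levels that just failed to overlap (-0.66 ± 0.30, adjusted p = 0.0975), and was called lower without normoxic replicate 1 (-0.88, adjusted p = 0.0374). MT1F went from 47, 56 and 29 to 36, 33 and 25 counts (-0.44 ± 0.29, adjusted p = 0.251). These values rest on at most 98 counts per sample.

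MTF1 stood at 20.2, 18.7 and 20.96 CPM in normoxic and 20.9, 19.3 and 18.8 CPM in hypoxic HepG2 samples, fully overlapping (-0.02 ± 0.08, adjusted p = 0.856, edgeR). SLC30A1 stood at 41.0, 40.1 and 49.9 CPM in normoxic and 34.2, 34.5 and 39.8 CPM in hypoxic samples. All hypoxic values were below the lowest normoxic one, by a small margin, and the log2 fold change was -0.27 ± 0.09 (adjusted p = 0.0288). That call was lost without normoxic replicate 3 (-0.17, adjusted p = 0.0827), without hypoxic replicate 1 (-0.23, adjusted p = 0.115) or without hypoxic replicate 2 (-0.24, adjusted p = 0.116), and in a fit of all 18 samples (-0.27, adjusted p = 0.122).

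In HKC-8 cells no member was called, among 7 tested, where 11.2% of 13536 genes were called higher and 9.12% lower (20.4% in either direction). At an unadjusted p under 0.05 the count was 1 (MT1F) by edgeR and also by DESeq2, which called none after adjustment. The median log2 fold change of the 7 was 0.0045, beside 0.0036 over all genes tested. MT2A stood at 123, 208 and 119 CPM in normoxic and 152, 205 and 120.5 CPM in hypoxic samples, and MT1E at 77.4, 103 and 78.3 and then 79.0, 113 and 68.5 CPM. Replicate 2 was the highest of its group for both genes in both conditions. Same-numbered HKC-8 samples deviated together across all genes for replicates 2 and 3 (correlations of 0.453 and 0.447). For replicate 1 the correlation of 0.109 was no higher than that of normoxic replicate 1 with hypoxic replicate 2 (0.116). A fit with the replicate number as a block was also made, and it called 21% of genes higher and 21.6% lower (42.5% together). There MT1F was called higher, with a log2 fold change of 0.49 ± 0.15 (SE, adjusted p = 0.0226, edgeR), where the fit without the block gave 0.50 ± 0.21 (adjusted p = 0.129).

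MT1F stood at 4.32, 5.63 and 6.40 CPM in normoxic and 6.49, 10.1 and 6.52 CPM in hypoxic HKC-8 samples. The groups did not overlap, but the highest normoxic and the lowest hypoxic values were nearly equal, and hypoxic replicate 2 was well above the rest. MT2A and MT1E gave blocked log2 fold changes of 0.10 ± 0.07 (adjusted p = 0.258) and -0.01 ± 0.07 (adjusted p = 0.959, edgeR). MT1X stood at 10.0, 11.5 and 12.1 CPM in normoxic and 11.2, 13.9 and 8.55 CPM in hypoxic samples and was centred on no change (0.00 ± 0.18, adjusted p = 0.989, without the block). MTF1 gave -0.05 ± 0.09 (adjusted p = 0.714), and SLC30A1, at 32.1, 31.6 and 23.0 and then 30.7, 32.7 and 22.8 CPM, also gave no call (adjusted p = 0.991). MT1A went from 20, 44 and 17 to 14, 21 and 13 counts without a call (-0.80 ± 0.47, adjusted p = 0.260).

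In RCC4+VHL cells the replicates were tight and changes were small. Of 6 members tested, MT1F and MTF1 were called higher and none lower, where 50.1% of 12811 genes were called (25.9% higher and 24.2% lower). The median log2 fold change of the 6 was 0.09, beside -0.0018 over all genes tested. MT1F stood at 8.02, 8.94 and 7.42 CPM in normoxic and 9.98, 10.4 and 9.02 CPM in hypoxic samples, without overlap (log2 fold change 0.27 ± 0.10, SE, adjusted p = 0.0231, edgeR). Its call was lost without normoxic replicate 1 (0.26, adjusted p = 0.0718), normoxic replicate 3 (0.21, adjusted p = 0.09999) or hypoxic replicate 2 (0.23, adjusted p = 0.0896), and in a fit of all 18 samples (0.27, adjusted p = 0.336). MTF1 stood at 31.5, 30.3 and 32.6 CPM in normoxic and 34.5, 34.8 and 35.4 CPM in hypoxic samples, also without overlap (0.16 ± 0.05, adjusted p = 0.0162). Its call was lost without normoxic replicate 2 (0.13, adjusted p = 0.0873) or hypoxic replicate 3 (0.15, adjusted p = 0.0543), and in the fit of 18 samples (0.15, adjusted p = 0.161).

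MT2A stood at 161, 170.4 and 144 CPM in normoxic and 166, 181 and 157 CPM in hypoxic RCC4+VHL samples (0.09 ± 0.05, adjusted p = 0.154, edgeR), and was called without normoxic replicate 2 (0.14, adjusted p = 0.0436) or hypoxic replicate 3 (0.14, adjusted p = 0.0379). MT1E stood at 113, 108 and 113 and then 117, 119.9 and 115 CPM, close to each other although the groups did not overlap (0.08 ± 0.04, adjusted p = 0.0769). MT1X stood at 7.63, 8.96 and 7.47 and then 6.99, 7.85 and 7.45 CPM, overlapping (-0.11 ± 0.10, adjusted p = 0.415). SLC30A1 stood at 40.2, 39.4 and 38.3 and then 36.8, 37.5 and 37.1 CPM, with every hypoxic value lower but no call (-0.08 ± 0.05, adjusted p = 0.197).

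Whether HepG2 and HKC-8 cells, which share the labelled exposure apart from the HKC-8 titles, responded differently was tested as an interaction of line and oxygen in 12 samples. Only MT1X was called among 7 members tested, where 9.3% of 15046 genes were called (5.02% with a larger response in HepG2 cells and 4.28% with a smaller one). The log2 fold change of MT1X was larger in HepG2 cells by 1.23 ± 0.29 (SE, adjusted p = 0.0139, edgeR), and the call held in all 19 alternatives, from 0.98 to 1.40. The difference was 0.70 ± 0.37 for MT2A (adjusted p = 0.265), 0.55 ± 0.24 for MT1E (adjusted p = 0.173), -0.94 ± 0.36 for MT1F (adjusted p = 0.125) and 1.46 ± 0.56 for MT1A (adjusted p = 0.119). With the HKC-8 replicate numbers as a block, which called 10.1% of genes with a larger and 8.37% with a smaller response (18.5% together), MT1E joined MT1X (0.57 ± 0.15, adjusted p = 0.0131). MT2A stayed without a call there (0.69 ± 0.26, adjusted p = 0.0790), as did MT1A and MT1F. Without the block, MT1E was called when hypoxic HKC-8 replicate 2 was left out (0.77, adjusted p = 0.0203), and MT1A when normoxic HKC-8 replicate 3 was (1.71, adjusted p = 0.0495). MTF1 (0.03 ± 0.12) and SLC30A1 (-0.27 ± 0.21) gave no call. With a block in both lines MT2A (0.68, adjusted p = 0.00114), MT1A (1.41, adjusted p = 0.0339) and MT1F (-0.92, adjusted p = 0.0430) were called too, although HepG2 samples did not meet the limit set for pairing. Whether the rise of MT2A in HepG2 cells differed from its value in HKC-8 cells thus depended on the pairing of samples.

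Because reads of near-identical copies may be lost or split, the 16 metallothionein genes in the files, namely the 8 members, 7 others and MT1P2, which had 0 counts, were also summed. The sum was 142, 196 and 234 CPM in normoxic and 272, 273 and 437 CPM in hypoxic HepG2 samples, without overlap. In HKC-8 samples it was 219, 333 and 219.7 and then 253, 348.5 and 208 CPM, overlapping, and in RCC4+VHL samples 289, 296 and 272 and then 299.6, 319.5 and 288 CPM, also overlapping. Means were 190 ± 46.5 and 327 ± 94.97 CPM in normoxic and hypoxic HepG2 cells, 257 ± 65.6 and 269.9 ± 71.7 in HKC-8 cells, and 286 ± 12.5 and 302 ± 15.9 in RCC4+VHL cells (SD, n = 3).

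MT2A made up 82.0% ± 2.83 of the normoxic sum in HepG2 cells, 57.6% ± 4.42 in HKC-8 cells and 55.4% ± 2.33 in RCC4+VHL cells, and MT1E made up 10.8%, 33.9% and 39.0%. These are shares of counts, not scaled by transcript length. The main transcript of MT1E has 746 bases and that of MT2A 401, so MT1E weighs more here than per kilobase. In hypoxia MT2A supplied 82.3%, 58.9% and 55.5% in the same order of lines. The share of MT1X in HepG2 cells was 5.38% ± 0.993 in normoxia and 7.23% ± 0.249 in hypoxia, with no overlap between the groups.

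**Figure D3:**
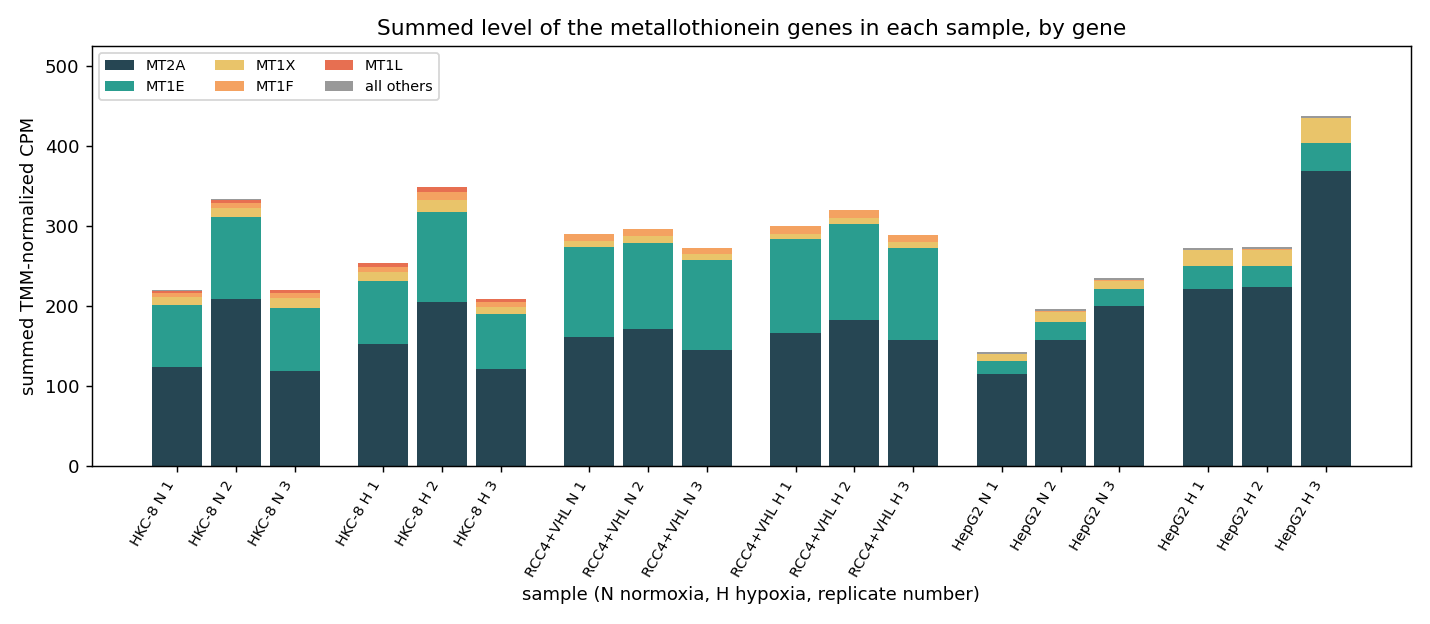
Summed TMM-normalized CPM of 16 metallothionein genes (y axis, from 0) in each of 18 samples (x axis), stacked by gene. The bars of hypoxic HepG2 samples reach 272 to 437 CPM and those of normoxic ones 142 to 234 CPM, MT2A is the largest layer in all samples, and the MT1E layer is thin in HepG2 cells.

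Other genes of zinc and copper handling and of pathways known to act on metallothionein genes were read from lists. Among the other zinc exporters of the SLC30 family, 2 of 6 tested were called higher in hypoxic HepG2 cells (19.9% of all genes were). None of 4 was called in RCC4+VHL cells and none of 7 in HKC-8 cells, where 50.1% and 20.4% of all genes were called. With the block, SLC30A5 and SLC30A7 were called lower in HKC-8 cells (both -0.20), as were 21.6% of all genes. The median log2 fold change of these exporters was 0.13 in HKC-8, -0.04 in RCC4+VHL and 0.02 in HepG2 cells. SLC30A10, a transporter known mainly for exporting manganese, stood at 4.71, 4.94 and 5.01 CPM in normoxic and 14.5, 17.4 and 17.6 CPM in hypoxic HepG2 samples (log2 fold change 1.76 ± 0.11, adjusted p = 3.99e-08, edgeR), and had 0 counts in the 12 samples of the other lines. The other, SLC30A9, rose by 0.37 ± 0.06 on the log2 scale and is named after its value was seen.

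Among 14 importers of the SLC39 family, 5 of 12 tested were higher and 1 lower in hypoxic HepG2 cells, 3 of 10 higher and 3 lower in RCC4+VHL cells, and 1 of 10 higher and 1 lower in HKC-8 cells (2 lower with the block). Over all genes 19.9% were higher and 19.2% lower in HepG2, 25.9% and 24.2% in RCC4+VHL, and 11.2% and 9.12% in HKC-8 cells, so that the counts of importers in the kidney lines are near the background. No importer that was called changed by a log2 fold change of 1 or more. The higher ones in HepG2 cells, named after their values were seen, were SLC39A4, SLC39A7, SLC39A8, SLC39A10 and SLC39A13, with log2 fold changes from 0.18 to 0.63. SLC39A7 is 1 of the 14 chromosome 6 genes listed at 0 in the other lines. SLC39A8, an importer that also carries cadmium and manganese, had the largest of these but was low, at 1.12 ± 0.117 CPM in normoxia and 1.74 ± 0.227 in hypoxia (SD, n = 3). The median log2 fold changes of the importers were -0.03, 0.04 and 0.08 in HKC-8, RCC4+VHL and HepG2 cells, against 0.0036, -0.0018 and -0.0044 over all genes tested.

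Of 10 copper genes, 2 were higher and 5 lower in HepG2, 3 higher and 4 lower in RCC4+VHL, and 2 higher and 1 lower of 9 tested in HKC-8 cells, with median log2 fold changes of -0.17, -0.07 and -0.09. Of all genes 39.1%, 50.1% and 20.4% were called in these lines, against which the counts of 7 of 10, 7 of 10 and 3 of 9 are to be read. CP, which encodes the copper carrier ceruloplasmin and is a known target of HIF, rose from 25.2 ± 1.89 to 191 ± 4.14 CPM in RCC4+VHL cells (2.93 ± 0.05, adjusted p = 3.99e-23, edgeR) and from 101 ± 15.7 to 378 ± 35.7 CPM in HepG2 cells (1.90 ± 0.10, adjusted p = 6.93e-09). It was near the floor in HKC-8 cells, with at most 10 counts.

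The list for NRF2, the factor of the oxidative stress response, held targets, its own gene NFE2L2 and KEAP1, the gene of its inhibitor. Of these 10 genes, none was higher and 7 were lower in HepG2 cells, and none higher and 8 lower in RCC4+VHL cells. In HKC-8 cells 1 was higher and 3 lower (4 lower with the block, which added SRXN1). Lower calls made up 19.2%, 24.2% and 9.12% of all genes in these lines, and 21.6% in HKC-8 cells with the block. The median log2 fold change was -0.50, -0.23 and -0.09 in the same order. SLC7A11, the cystine transporter subunit, was the gene that rose in HKC-8 cells, from 60.6, 73.5 and 96.7 to 197, 217 and 222 CPM, each in rising order and without overlap (1.46 ± 0.15, adjusted p = 0.000440, edgeR), while it fell in HepG2 cells (-0.64 ± 0.13, adjusted p = 0.00125). Of 5 genes tested from a glucocorticoid list, which includes NR3C1, the gene of the receptor, 1 was higher and 1 lower in HKC-8 cells. In RCC4+VHL cells 1 was higher and in HepG2 cells 1 lower, with medians of 0.30, 0.09 and 0.05 in this order of lines. Of all genes 11.2%, 25.9% and 19.9% were called higher in HKC-8, RCC4+VHL and HepG2 cells. Lower calls made up 9.12%, 24.2% and 19.2% in that order, so the counts of this list are near the background. NR3C1 went from 104 ± 3.26 to 173 ± 4.63 CPM in RCC4+VHL cells (SD, n = 3), the largest change of the 5 there. TSC22D3, which encodes a glucocorticoid-induced leucine zipper protein, rose in HKC-8 cells from 1.77, 2.36 and 4.07 to 6.71, 9.51 and 9.73 CPM (1.66 ± 0.29, adjusted p = 0.00580, edgeR). With the block KLF9 and PER1 were called higher there as well (0.29 and 0.41), and FKBP5, another target, was called lower (-0.24). The block called 21% of all genes higher and 21.6% lower. In HepG2 cells TSC22D3 gave 0.05 ± 0.20 (adjusted p = 0.868, edgeR) at 61 to 81 counts per sample. FKBP5 went from 95.4 ± 7.97 to 74.5 ± 6.43 CPM there (SD, n = 3). Any part of glucocorticoid signalling or oxidative stress in the metallothionein levels was not tested.

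Genes whose level over the 18 samples was most like that of a member were ranked by Pearson's r of log2(CPM + 1) over 12827 genes. For MT1E the first 5 were CYR61, TUBB6, FUT4, TMEM185B and DOPEY2, with r from 0.98 to 0.99. For MT2A the first 5 were WDR45B, UQCRC1, MCL1, ZNF653 and RNF113A, with r from 0.73 to 0.75. The points share line, depth and library preparation, and r was not computed within lines.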

How the data were processed

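PolyA+ RNA of 3 human cell lines in normoxia and hypoxia had been made into ScriptSeq v2 libraries. According to the submitters' processing notes and the study's methods, reads were trimmed with Trim Galore 0.3.3 and aligned to GRCh37 with TopHat2 2.0.8b and Bowtie 1.0.0. Fragments mapping to more than 1 place were removed with SAMtools 0.1.19, and those lying wholly in UCSC gene exons were counted with HTSeq 0.5.4p3. The strand setting is not given in the sources used here. The authors deposited 1 file of raw counts per sample with 23106 gene symbols, and none of their own comparisons was used.

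Counts were analysed as deposited with edgeR 4.0.16 in R 4.3.3 (filterByExpr, TMM scaling, quasi-likelihood test). Each line was fitted on its own for hypoxia over normoxia, the 9 normoxic samples together for differences between lines, and 12 samples for the interaction of line and oxygen in HepG2 and HKC-8 cells. Genes were called at a Benjamini-Hochberg adjusted p under 0.05. The standard error is the log2 fold change divided by the root of the F statistic. Total counts were 40915980 to 97984260, and floors of 3 counts cover counting error only. Groups came from the labels. Alternatives were DESeq2 1.42.0, its size factors in edgeR, a replicate block, leaving out each sample, fitting all 18 samples jointly, and replacing the low-count filter by none or by a minimum of 10 counts throughout. A block in HKC-8 cells only was chosen after seeing the data, as was the count of genes at 0 by region. The test scripts were tested on simulated data.

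Replicate numbers are shared between the groups of a line. Deviations from the group means correlated over genes between same-numbered samples at 0.109, 0.453 and 0.447 in HKC-8 cells, all above the limit of 0.1 for pairing. Differently numbered HKC-8 samples gave -0.469 to 0.116. The highest of these, normoxic replicate 1 with hypoxic replicate 2, exceeded the same-numbered pair 1, so only pairs 2 and 3 stood apart. In HepG2 cells 2 of 3 pairs were above it (0.165, 0.0617 and 0.184) and in RCC4+VHL cells none, so these lines were not taken as paired. This pairing comes from the data alone, since the labels give only the number.

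The members and lists were chosen with earlier results of these data known. Named from the lists were genes called with a log2 fold change of at least 1. Transcript lengths and positions came from GENCODE on GRCh37 and promoters from RefSeq on GRCh38.p14. Uniqueness was counted over 50-base words of the main transcript in GRCh37, a length chosen here. Markers were the lists of 8 liver, 6 kidney lineage and 6 proximal tubule genes. Group values are means ± SD.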

Additional observations from a re-analysis of the deposited data

Results flagged for a closer look

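The log2 response of MT1X to hypoxia was larger in HepG2 than in HKC-8 cells by 1.23 ± 0.29 (SE, adjusted p = 0.0139, edgeR's interaction test). MT1X was higher in all 3 hypoxic HepG2 samples than in any normoxic one, whereas the HKC-8 groups overlapped. The result stands out because the same contrast differed between cell lines by a test of the difference itself. Depth, line and any library batch cannot be told apart between these lines.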

How the results depend on the processing

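Of values for single genes, 1007 alternatives kept direction and side of the threshold, 22 gained a call, 15 lost one and 33 changed sign.

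With the replicate block, HKC-8 cells had 2836 genes higher and 2919 lower, with 1 member called (MT1F), and MT1E and MT1X turned to -0.0052 and -0.017 without a call. The block over both lines gave 1656 genes with a larger and 1363 with a smaller response in HepG2 cells, with 4 members larger (MT1X 1.23, MT2A 0.68, MT1E 0.57, MT1A 1.41) and 1 smaller (MT1F -0.92). The block in HKC-8 cells only gave 1518 and 1260 genes and 2 members. In HepG2 and RCC4+VHL cells, whose samples share only a number, the block added MT1A (0.65, adjusted p = 0.0273, edgeR) and MT2A (0.09, adjusted p = 0.0307), and in normoxia MT1X for RCC4+VHL over HepG2 (-0.32, adjusted p = 0.0428). SLC30A10, at 0 in both kidney lines, changed sign there at 0.00068.

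In 1 fit of all 18 samples the calls were 2503 higher and 2510 lower with 1 member higher (MT1F) in HKC-8 cells, 1867 and 1419 with 0 members in RCC4+VHL cells, 0 members lower in HepG2 cells, and 1209 and 1010 for the difference in response. With at least 10 counts in every sample, MT1A and MT1G were not tested between lines, so 1 member was higher in HepG2 than in HKC-8 cells and 0 were lower in RCC4+VHL than in HepG2 cells, and SLC30A1 in HKC-8 cells turned to 0.0066. Without a low-count filter MT2A was called in RCC4+VHL cells (0.09, adjusted p = 0.0373).

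Leaving out 1 sample in turn gave, in HKC-8 cells, 687 to 1794 genes higher and 326 to 1489 lower, the lowest of both without normoxic replicate 1, and log2 fold changes from -0.22 to 0.16 for MT1E, -0.18 to 0.16 for MT1X, -0.14 to 0.40 for MT2A, -0.11 to 0.0025 for MTF1 and -0.15 to 0.14 for SLC30A1. In RCC4+VHL cells 1 to 2 members were higher and TSC22D3 ranged from -0.0029 to 0.079. In HepG2 cells 0 to 2 members were lower, MTF1 ranged from -0.068 to 0.0093 and TSC22D3 from -0.021 to 0.15. The difference in response gave 481 to 932 genes larger, 430 to 1000 smaller and 1 to 2 members larger, with MTF1 from -0.022 to 0.070. In normoxia MT2A ranged from -0.17 to 0.33 (HepG2 over HKC-8), -0.068 to 0.39 (RCC4+VHL over HKC-8) and -0.13 to 0.26 (RCC4+VHL over HepG2). The causes were not tested.

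Depth limits MT1A, MT1G, MT1H and MT1M, and near-identical copies limit all metallothionein levels.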
